A study of Mus musculus with 18 samples.

Results

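The prion protein gene Prnp and its neighbours on mouse chromosome 2 were described here as 5 genes, Prnp, Prnd, Lamr1-ps1, Rassf2 and Slc23a2, out of 55487 genes in the deposited count table. The members were selected on their position beside Prnp and on measured values of these same mice, chiefly the higher counts of Prnp and Lamr1-ps1 in transgenic than in WT mice. The levels of the members in transgenic and WT mice are therefore a description without a test, and the members were tested only among transgenic mice and between the sexes. Tests against WT mice are given for genes that are no members, namely those taken by position, Rpsa and its copies, partners of the prion protein and cell type markers, and of these only the genes taken by position were not picked by name with earlier results known. All 5 members were in the table, and 4 of them passed the filter on low counts. Prnd did not pass.

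The frontal cortex of 18 mice aged 9 to 10 months was sequenced as stranded mRNA libraries, with 3 females and 3 males of each of 3 genotypes. APP/PS1 mice are a double transgenic model of Alzheimer's disease that carries, among its transgenes, the mutant amyloid precursor protein APPswe. APP/PS1/FTnKO mice carry them as well and lack the β-subunit of farnesyltransferase, encoded by Fntb, in forebrain neurons, where the CamKIIα promoter drives the Cre recombinase. The study asked what the loss of neuronal farnesyltransferase does to the brain transcriptome of APP/PS1 mice. According to the methods of the study, the mice of all 3 genotypes were homozygous for the floxed allele, so that APP/PS1 and WT mice were FT f/f littermates without Cre. The record of the deposited data calls the WT mice C57BL/6J, and this difference could not be settled. Forebrain neurons that lack the enzyme share the tissue with glia and other cells that keep it, and in bulk RNA fewer cells of a type cannot be told apart from less RNA per cell.

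The prion protein is a glycoprotein of the neuronal surface, held there by a lipid anchor, and is known for the misfolded form that causes prion disease and as a binding site of amyloid-β oligomers. Prnd lies just downstream and encodes its paralog Doppel, which is made mainly in the testis. The transgenes of this APP/PS1 line are driven by a cassette from the mouse prion protein gene, in which noncoding Prnp sequence flanks the inserted coding sequence, so that reads of the transgenes and of endogenous Prnp cannot be told apart in whole-gene counts where they share sequence.

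Prnp (ENSMUSG00000079037) lies on the plus strand of GRCm38 at chr2:131909928-131938429 and has 3 exons of 76, 98 and 2010 bases in the transcript used here, of which 762 bases, or 34.9%, are coding. The 250 bases before its start are shown because this is the genomic counterpart of the promoter in the cassette (RefSeq, GRCm38.p6, plus strand, chr2:131909678-131909927). Capitals mark matches, on either strand, to a GC box with the letters GGGCGG, to a box spelled CCAAT, and to a TATA box with the letters TATAAA.
Prnp, 250 bases before the start: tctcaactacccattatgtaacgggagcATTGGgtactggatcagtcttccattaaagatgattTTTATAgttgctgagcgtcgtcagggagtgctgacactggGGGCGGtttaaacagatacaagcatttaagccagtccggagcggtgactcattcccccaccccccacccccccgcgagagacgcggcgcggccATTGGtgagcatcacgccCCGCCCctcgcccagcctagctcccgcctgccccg
The stretch has a GC content of 58.8% and held 2 GC boxes, 2 CCAAT boxes and 1 TATA box. A GC box was found in 32.7% of 32851 RefSeq promoters of the same length, a CCAAT box in 33.9% and a TATA box in 12.4%, so that each match is common and describes letters, not a bound site.

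Lamr1-ps1 (ENSMUSG00000081229, chr2:131904086-131904959, plus strand of GRCm38) is a processed pseudogene that ends 4.97 kb before the start of Prnp. Its parent is Rpsa, which encodes a protein of the small ribosomal subunit, also described as a laminin receptor. The alignment of the pseudogene with Rpsa (transcript of GENCODE vM21) is shown for the 150-base stretch without gaps in which they differ most. A read has the same length of 150 bases. The stretch was picked for its differences, so that it does not show the closest match, and all windows are described below. Capitals mark the 44 bases at which the stretches differ.
Lamr1-ps1, chr2:131904115-131904264: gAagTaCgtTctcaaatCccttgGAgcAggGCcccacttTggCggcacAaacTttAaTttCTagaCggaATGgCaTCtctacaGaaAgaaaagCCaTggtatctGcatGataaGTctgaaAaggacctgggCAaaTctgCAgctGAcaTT
Rpsa, transcript bases 211 to 360: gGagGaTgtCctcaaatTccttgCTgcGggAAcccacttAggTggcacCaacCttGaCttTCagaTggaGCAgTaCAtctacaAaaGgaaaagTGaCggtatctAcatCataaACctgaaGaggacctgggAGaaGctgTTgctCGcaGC
Over 847 aligned bases the identity was 76.2%. The number of differences from Rpsa was 24 to 51 (median 41) in the 725 windows of 150 bases along the pseudogene, and none of these windows occurs in any other GENCODE transcript. A read that covers a full window of Lamr1-ps1 therefore has no identical copy among the annotated transcripts. How reads with mismatches were placed and counted was not tested.

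The total count per mouse was 15925432 to 21030935. The RNA integrity number (RIN) was 8.5 to 8.8 (median 8.7) in WT mice and reached lower in transgenic mice, at 7.7 to 8.7 (median 8.2) in APP/PS1 and 7.6 to 8.7 (median 8.6) with the knockout. With the RIN as a covariate or only mice with a RIN of at least 8, the log2 difference of Prnp from WT was 1.56 to 1.61. WT mouse 19622 stood apart from the other WT mice, with a mean distance of 4.31 on the multi-dimensional scaling measure (a typical log2 difference of the 500 most different genes) against 2.40 to 2.51 for the others. It had a summed level of 6 cerebellar markers of 2635 CPM (counts scaled to the library total), against 31.0 to 63.6 in the other 17 mice, and of 6 markers of cortical excitatory neurons of 352 CPM, against 920 to 1868. The methods of the study left out a WT outlier without naming it, and 19622 was left out of the fit here and is given apart. Fntb, the targeted gene, had a median of 12.6 (7.84 to 14.7) normalized CPM in APP/PS1/FTnKO mice, against 15.8 (14.2 to 32.1) in APP/PS1 and 16.9 (14.1 to 32.2) in WT mice, in whole-gene counts that include the cells without Cre. The knockout group differed from APP/PS1 mice by -0.77 on the log2 scale (SE 0.26, FDR = 0.251, edgeR's quasi-likelihood test), so that the counts of Fntb do not pass the threshold as a check of the labels. Both transgenic groups overlapped in it. Within APP/PS1, mice 19553 and 19554 had 28.7 and 32.1 normalized CPM of Fntb, and the others 14.2 to 17.1. Among the WT mice of the fit, 19721 and 19718 had 30.8 and 32.2, and the others 14.1 to 16.9. WT mouse 19622 had 38.4 when scaled with all 18 mice. The cause of this split among mice without Cre was not tested. Libraries of the same genotype are separate mice.

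Prnp was expressed in every mouse, and its level in transgenic mice was about 3 times that in WT mice. In WT mice Prnp had 684, 768 and 694 normalized CPM (scaled by edgeR's TMM factors) in the males 19101, 19718 and 19721 and 706 and 658 in the females 18944 and 19053. In APP/PS1 mice it had 1983 to 2084 in the 3 males and 2121 to 2333 in the 3 females, with a median of 2102 over the 6. In APP/PS1/FTnKO mice the males 18973, 19720 and 16974 had 1841, 1855 and 2196 and the females 18943, 19722 and 19394 had 2171, 2460 and 2632, with a median of 2183 over the 6. No transgenic mouse overlapped with a WT mouse, and the 3 lowest values among the transgenic mice were those of males. The mean was 702 ± 41.0 (SD, n = 5) in WT, 2118 ± 124 (n = 6) in APP/PS1 and 2192 ± 317 (n = 6) in APP/PS1/FTnKO mice, a ratio of means to WT of 3.02 and 3.12. The fitted log2 fold change (log2FC) was 1.58 (SE 0.08) for APP/PS1 and 1.62 (SE 0.08) for APP/PS1/FTnKO against WT, without a test. Over all genes tested, 1.50% passed an FDR of 0.05 (edgeR) in the former contrast and 3.87% in the latter, and nothing is read from these shares for the members, which these contrasts chose. WT mouse 19622 had 550 CPM when scaled with all 18 mice, below the 657 to 772 of the other WT mice.

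**Figure D1:**
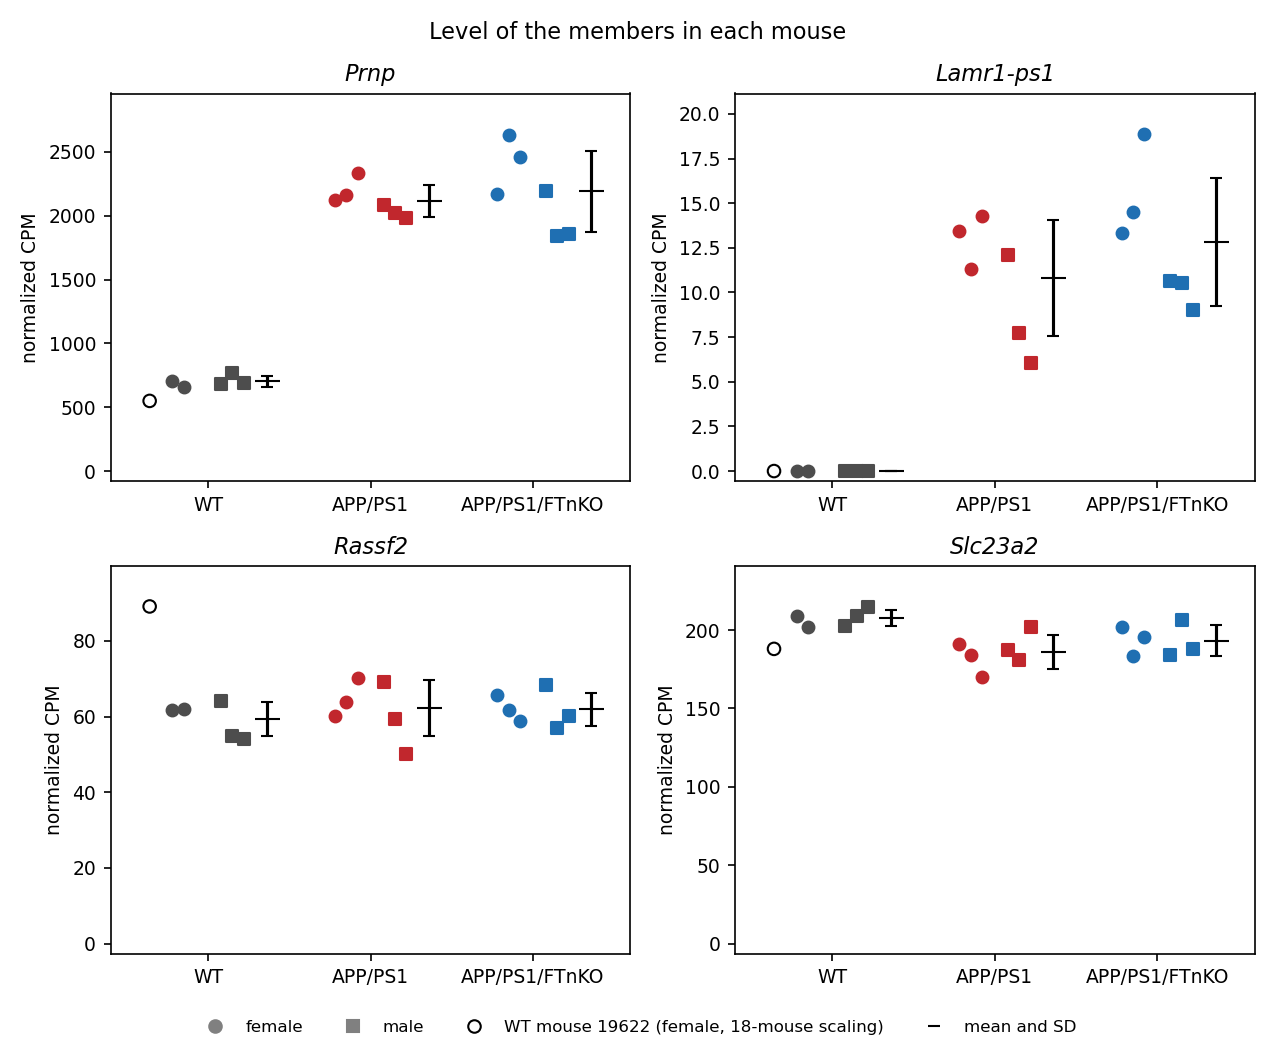
Level of Prnp, Lamr1-ps1, Rassf2 and Slc23a2 in each mouse, in normalized CPM, by genotype, with circles for females, squares for males, an open circle for WT mouse 19622 (scaled with all 18 mice, others with 17) and bars for the mean ± SD without it. Prnp lies at 1841 CPM or above in transgenic mice and at 768 or below in WT mice, and Lamr1-ps1 is at 0 in every WT mouse.

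The spread of Prnp was wider in APP/PS1/FTnKO (SD 317 CPM) than in APP/PS1 mice (SD 124 CPM), and the difference of the spreads was not tested. The comparison of these transgenic groups asks whether the knockout moved the counts of Prnp. It gave a log2FC of 0.046 (SE 0.073, FDR = 0.862, edgeR's quasi-likelihood test, adjusted over 17414 genes). The interval of 2 SE around it runs from a fold of 0.933 to 1.14. Reads of the transgenes and of endogenous Prnp cannot be told apart in these counts, so the interval does not bound a change of endogenous Prnp alone. The log2FC depended on single knockout mice, since it was -0.0010 without 19394, 0.023 without 19722, 0.029 without 16974, 0.081 without 19720 and 0.084 without 18973. None of the 4 tested members passed an FDR of 0.05 in this comparison, in which 0.327% of all genes did.

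App, the mouse gene of the amyloid precursor protein which the chimeric APP transgene matches in part, had 1534 ± 51.2 (SD, n = 5) normalized CPM in WT, 2897 ± 283 (n = 6) in APP/PS1 and 2972 ± 517 (n = 6) in APP/PS1/FTnKO mice. The ratio of means to WT was 1.89 and 1.94, which is smaller than that of Prnp. App is not a member, and its log2FC was 0.032 (SE 0.088, FDR = 0.931, edgeR) between the transgenic groups.

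Lamr1-ps1 was the member with the sharpest division by genotype, as no read was counted for it in any WT mouse. The counts were 0 in all 6 WT mice, 19622 among them. In APP/PS1 mice they were 103, 137 and 195 in the males 19744, 19619 and 16975 and 217, 233 and 255 in the females 19553, 19554 and 19723. In APP/PS1/FTnKO mice they were 178, 185 and 187 in the males 16974, 18973 and 19720 and 249, 309 and 395 in the females 18943, 19394 and 19722. Every transgenic mouse was thus above the limit of 3 counts that a count of 0 allows, and within each transgenic genotype every female had a higher count than every male. After scaling for depth this held in APP/PS1/FTnKO mice, while the APP/PS1 male 16975 at 12.1 normalized CPM lay above the female 19554 at 11.3. The mean level was 10.8 ± 3.26 normalized CPM (SD, n = 6) in APP/PS1 and 12.8 ± 3.57 (n = 6) in APP/PS1/FTnKO mice. Against a limit of 3 counts over the WT group, or 0.0331 CPM, it was at least 327-fold higher in APP/PS1 and at least 387-fold higher in APP/PS1/FTnKO mice. This limit covers counting error only.

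Between the transgenic groups the log2FC of Lamr1-ps1 was 0.24 (SE 0.15, FDR = 0.594, edgeR), with an interval of 2 SE from a fold of 0.963 to 1.46. Single APP/PS1 mice moved this value, to 0.38 without 16975 and to 0.16 without 19744, and it did not pass in either case. The pattern of Lamr1-ps1 over the genome was looked at after its values had been seen. Of 3636 genes at 0 in all 6 WT mice and with a count elsewhere, 2 had a count in each of the 12 transgenic mice. The other gene was Atp6v0d2, a subunit of the vacuolar proton pump, whose lowest count in a transgenic mouse was 3, against 103 for Lamr1-ps1.

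Rpsa, the parent gene, was expressed in every genotype, with 376 ± 24.2 (SD, n = 5) normalized CPM in WT, 431 ± 51.6 (n = 6) in APP/PS1 and 485 ± 43.9 (n = 6) in APP/PS1/FTnKO mice. WT mice thus held 6466 to 7537 reads of Rpsa in the 5 mice of the fit and 0 reads of Lamr1-ps1. The Rpsa pseudogenes elsewhere in the genome that were tested, Rpsa-ps2, Rpsa-ps7 and Rpsa-ps10, had counts in all 18 mice. Rpsa-ps7 rose in APP/PS1/FTnKO against WT mice with a log2FC of 0.37 (SE 0.09, FDR = 0.0358, edgeR), next to 0.36 (SE 0.08, FDR = 0.0226, edgeR) for Rpsa itself. Both calls were lost when certain single mice were left out, while that of Rpsa was kept in all 9 other alternatives. That of Rpsa was lost in 5 of 17 fits with a mouse left out, without 16974, 18943, 18944, 19053 or 19718 (highest FDR 0.0715, edgeR). That of Rpsa-ps7 was lost in 8 of 17, without these or 19394, 19720 or 19721 (highest FDR 0.105, edgeR), and also with the RIN as covariate, with a RIN of at least 8, with all 18 mice and with only these genotypes. Reads of Rpsa and of near copies may be split between them, since the sources used here do not give how reads with several matches were counted.

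Prnd (ENSMUSG00000027338, chr2:131950861-131956130, plus strand) was almost without reads. It had 2 counts in all, both in the WT male 19721, and 0 in each of the other 17 mice. With 0 in all 12 transgenic mice, these groups could not be compared. The read-through gene Prn (ENSMUSG00000098754), which overlaps Prnp and Prnd on the same strand, had 1 count in all. Prn spans the whole of Prnd, so that reads of Prnd, and of the part of Prnp that Prn overlaps, may have been left uncounted, as the sources used here do not give the handling of overlapping genes. The near absence of counts therefore does not show that Prnd was not expressed.

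Rassf2 and Slc23a2, the next members downstream, both lie on the minus strand. Rassf2 (ENSMUSG00000027339, chr2:131989415-132030258) encodes a protein with a Ras-association domain, known as a tumour suppressor. Rassf2 had 54.0, 54.8, 61.7, 62.1 and 64.1 normalized CPM in the 5 WT mice. APP/PS1 mice ranged from 50.1 to 70.2 (median 62.0) and APP/PS1/FTnKO mice from 57.0 to 68.4 (median 60.9), so that the 3 groups overlapped. The fitted log2FC was 0.06 (SE 0.08) for APP/PS1 and 0.06 (SE 0.08) for APP/PS1/FTnKO against WT. With the RIN as covariate these values were -0.064 and -0.015, and with all 18 mice -0.039 and -0.044. Between the transgenic groups the log2FC was -0.0040 (SE 0.073, FDR = 0.990, edgeR), with an interval from a fold of 0.901 to 1.10. The sign of this value turned in 7 of 26 alternatives, namely with the RIN as covariate (0.049), with only mice of a RIN of at least 8 (0.0060) and without APP/PS1 mouse 16975 (0.042) or 19723 (0.028) or knockout mouse 18973 (0.013), 19394 (0.0057) or 19722 (0.020), so that it has no settled direction. WT mouse 19622 had 89.1 CPM, above the 54.0 to 63.9 of the other WT mice in the same scaling.

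Slc23a2 (ENSMUSG00000027340, chr2:132052496-132145108) encodes the sodium-dependent vitamin C transporter SVCT2, which carries ascorbate into neurons. Slc23a2 had 202, 203, 209, 209 and 215 normalized CPM in the 5 WT mice. APP/PS1 mice ranged from 170.0 to 202 (median 186) and APP/PS1/FTnKO mice from 184 to 206 (median 192). The APP/PS1 mice did not overlap with the WT mice, though by less than 1 CPM, and the APP/PS1/FTnKO mice did overlap with them. The fitted log2FC was -0.16 (SE 0.05) for APP/PS1 and -0.10 (SE 0.05) for APP/PS1/FTnKO against WT, opposite in sign to that of Prnp, and nothing is read from the split since this contrast chose the members. WT mouse 19622 had 188 CPM, which is within the range of APP/PS1 mice. Between the transgenic groups the log2FC was 0.056 (SE 0.045, FDR = 0.684, edgeR), with an interval from a fold of 0.977 to 1.11. Without APP/PS1 mouse 19723 it was 0.032.

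Among the members, levels can be compared only per length of exon. The length used is that of all annotated exons of a gene joined, 2343 bases for Prnp, 7951 for Slc23a2, 11993 for Rassf2 and 874 for Lamr1-ps1. The values therefore depend on the annotation. In transgenic mice the counts of Prnp may also hold reads of the transgenes. In WT mice the mean was 299.6 CPM per kb for Prnp, 26.1 for Slc23a2 and 4.95 for Rassf2. In APP/PS1 mice the order was Prnp at 904, Slc23a2 at 23.4, Lamr1-ps1 at 12.4 and Rassf2 at 5.18, and in APP/PS1/FTnKO mice Prnp at 936, Slc23a2 at 24.3, Lamr1-ps1 at 14.7 and Rassf2 at 5.17. Neighbours in this order did not overlap in any mouse of the same genotype.

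Of the genes around the members, taken by position alone, none passed the test in any of the 3 comparisons between genotypes in the fit of all 3 genotypes. Within 1 Mb of Prnp lie 57 further genes, of which 29 were tested. None of the 29 passed an FDR of 0.05 between APP/PS1 and WT mice, where 1.50% of all genes did, and 6 had an unadjusted p below 0.05 (edgeR), as did 14.0% of all genes. None passed between the transgenic groups, with 0 below an unadjusted p of 0.05 beside 11.5% of all genes. None passed between APP/PS1/FTnKO and WT mice either, where 3.87% of all genes did, and 7 of the neighbours were below an unadjusted p of 0.05 beside 22.1% of all genes. DESeq2 called 0 of them in each comparison, while 1, Gpcpd1, was called for APP/PS1/FTnKO against WT with only these genotypes in the fit. Their median log2FC was 0.014 for APP/PS1 against WT, -0.026 between the transgenic groups and -0.013 for APP/PS1/FTnKO against WT, beside -0.0023, -0.0016 and 0.0053 over all genes tested. The median size of the change, regardless of sign, was 0.114, 0.057 and 0.139 in the same order, beside 0.103, 0.090 and 0.125 over all genes.

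None of the nearest tested genes on either side of the members passed the test in any comparison between genotypes. On the side of Lamr1-ps1, 5330413P13Rik at 62.2 kb from Prnp had a log2FC of -0.11 (SE 0.18, FDR = 0.831, edgeR) for APP/PS1 against WT. Gm14285 at 347 kb had 0.014 (SE 0.33, FDR = 0.991, edgeR), and Adra1d next to it, an α1-adrenergic receptor, had -0.35 (SE 0.16, FDR = 0.337, edgeR). On the side of Slc23a2, Tmem230 at 301 kb had -0.0099 (SE 0.062, FDR = 0.963, edgeR) and Pcna, the sliding clamp of DNA replication, had 0.00043 (SE 0.061, FDR = 0.998, edgeR). Cds2 at 325 kb, an enzyme of phospholipid synthesis, had -0.17 (SE 0.07, FDR = 0.315, edgeR). The smallest FDR among the neighbours in this comparison was 0.0965, for Siglec1 (log2FC 1.30, SE 0.36, edgeR), a receptor of macrophages that was named after its value had been seen. Without APP/PS1 mouse 19744 it was the 1 neighbour called. Microglia markers moved in the same direction, with 7 of 9 past an FDR of 0.05 and above WT in APP/PS1 mice (5 to 8 with each mouse left out) and a summed level that spanned 321 to 368 CPM in WT mice, 480 to 1086 CPM in APP/PS1 mice and 399 to 762 CPM with the knockout. The summed level of 4 astrocyte markers was 897 to 985 CPM in WT, 1165 to 2324 CPM in APP/PS1 and 1013 to 2006 CPM in knockout mice, with 1 of 4, Gfap, past the threshold and above WT in each transgenic genotype. The 6 markers of cortical excitatory neurons all had a log2FC below 0 against WT in both transgenic genotypes. In APP/PS1 mice 0 passed the threshold, and with the knockout 1 did, Slc17a7. This call was lost in 8 of 17 fits with a mouse left out (without 16974, 18943, 18973, 19394, 18944, 19053, 19718 or 19721). It was also lost in 4 of 9 other alternatives, with the RIN as covariate, with a RIN of at least 8, with all 18 mice and without the sex term. The part of these cell types in the values of Siglec1 or Prnp was not tested.

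**Figure D2:**
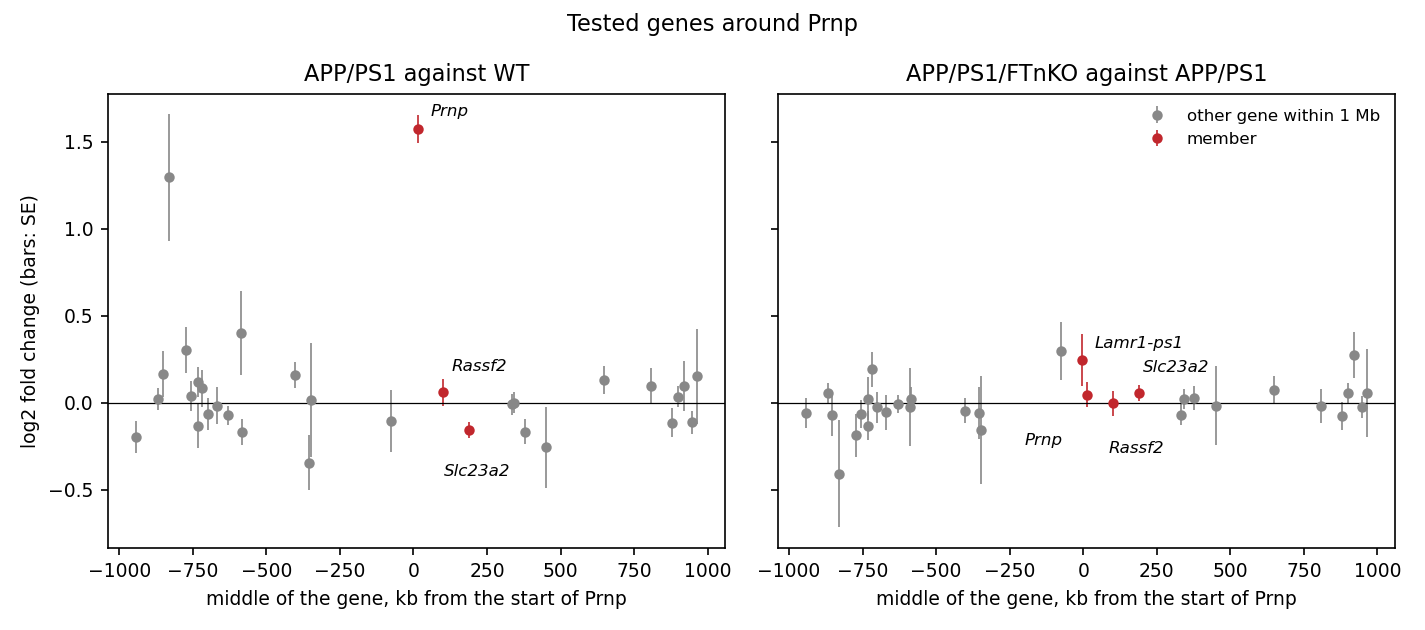
Log2 fold change of the tested genes within 1 Mb of Prnp, with bars for the SE, against the distance of the middle of each gene from the start of Prnp in kb, for APP/PS1 against WT (left) and APP/PS1/FTnKO against APP/PS1 mice (right). Members are in red and other genes in grey, and Lamr1-ps1 is left out on the left because it is at 0 in WT mice. Of the genes shown on the left, Prnp has the highest value at 1.58 (SE 0.08), followed by Siglec1 at 1.30 (SE 0.36).

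Partners of the prion protein were followed as a list of 10 genes, chosen with earlier results of these data known: its paralog Sprn (Shadoo), the laminin receptor Rpsa, the co-chaperone Stip1, the adhesion molecule Ncam1, the endocytic receptor Lrp1, the glutamate receptor Grm5, the kinase Fyn, caveolin Cav1, the receptor Adgrg6 and the shedding protease Adam10. All 10 were tested. None passed between APP/PS1 and WT mice, where 1.50% of all genes did (3 at an unadjusted p below 0.05 beside 14.0% of all genes, edgeR), with a median log2FC of -0.09 beside -0.0023 over all genes. None passed between the transgenic groups, where 0.327% of all genes did (1 at an unadjusted p below 0.05 beside 11.5%, edgeR), with a median of 0.041 beside -0.0016. Rpsa alone rose in APP/PS1/FTnKO against WT mice, the 1 called of 10 in edgeR beside 3.87% of all genes. At an unadjusted p below 0.05 there were 4 of the 10 beside 22.1% of all genes, while 8 of the 10 had a log2FC below 0 and the median was -0.09 beside 0.0053. As given above, the call of Rpsa was lost in 5 of 17 fits with a mouse left out and kept in all 9 other alternatives. Fyn, a kinase that signals downstream of the prion protein, had a log2FC of 0.084 (SE 0.045, FDR = 0.501, edgeR) and Grm5 of 0.074 (SE 0.096, FDR = 0.827, edgeR) between the transgenic groups.

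The sexes were compared among the transgenic mice, a contrast that was chosen on the values of Prnp and Lamr1-ps1 and added after they had been seen. Both genes had a higher mean in females than in males, and neither difference passed the test over all genes. The sexes overlapped, since the male 16974 had more Prnp (2196 CPM) than the 3 females 19553, 19554 and 18943 (2121 to 2171 CPM), and the male 16975 had more Lamr1-ps1 (12.1 CPM) than the female 19554 (11.3 CPM). Over both transgenic genotypes the mean of Lamr1-ps1 was 14.3 ± 2.52 normalized CPM (SD, n = 6) in females and 9.35 ± 2.21 (n = 6) in males, and that of Prnp was 2313 ± 202 and 1997 ± 136. The log2FC of females against males was 0.61 (SE 0.16, unadjusted p = 0.00183, FDR = 0.318, edgeR) for Lamr1-ps1 and 0.21 (SE 0.06, unadjusted p = 0.00483, FDR = 0.375, edgeR) for Prnp. For App it was 0.25 (SE 0.09, FDR = 0.452, edgeR). None of the 4 tested members passed the threshold over all genes, which 0.0747% of genes did. Without APP/PS1 mouse 16975, the APP/PS1 male with the highest Lamr1-ps1 count, the difference of Lamr1-ps1 was 0.77 with an FDR of 0.0496 (edgeR), but this was the 1 fit of 12 that passed with a mouse left out, and the FDR was 0.274 to 0.617 in the other 11. Rassf2 (0.06, SE 0.08, FDR = 0.946, edgeR) and Slc23a2 (-0.03, SE 0.05, FDR = 0.975, edgeR) lay near 0.

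In WT mice, 3 males and 2 females, Prnp had a log2FC of -0.07 (SE 0.10, FDR near 1, edgeR) between females and males. The sex difference of Prnp in transgenic minus that in WT mice was 0.28 (SE 0.12, unadjusted p = 0.0347, FDR near 1, edgeR), which does not show that the sexes differ by genotype. The difference of the knockout effect between females and males was 0.18 (SE 0.13, FDR near 1, edgeR) for Prnp and 0.033 (SE 0.31, FDR near 1, edgeR) for Lamr1-ps1. No gene was called in this test over all genes (578 at an unadjusted p below 0.05 in edgeR, and 1 called by DESeq2).

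Whether the members varied together from mouse to mouse was examined in the 12 transgenic mice, since WT mice form a separate cluster, with 5 relations computed on log2 normalized CPM, of which 4 are reported. Prnp and Lamr1-ps1 had Pearson's r of 0.70 (permutation p = 0.0103, adjusted over the 5 relations 0.0496) and Spearman's rho of 0.83 (permutation p = 0.00163, adjusted 0.00815). Prnp and App had r of 0.66 (permutation p = 0.0198, adjusted 0.0496) and rho of 0.59 (permutation p = 0.0464, adjusted 0.116). Mice with more Prnp thus tended to have more Lamr1-ps1 and, less clearly by rank, more App. Without the 2 mice farthest from the median of Prnp, 18973 and 19394, r was 0.80 with Lamr1-ps1 and 0.78 with App. In these 10 mice rho was 0.78 with Lamr1-ps1 (permutation p = 0.0105, adjusted 0.0525) and 0.58 with App (permutation p = 0.0883, adjusted 0.221). With RLE in place of TMM normalization the adjusted p of r was 0.0511 for both relations. With each of the 12 mice left out in turn, the adjusted permutation p of r was above 0.05 in 8 cases for Lamr1-ps1 (0.0208 to 0.166) and in 9 for App (0.0208 to 0.193). That of rho stayed below 0.05 in all 12 cases for Lamr1-ps1 (0.00555 to 0.0383) and in 0 for App.

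The relation was recomputed within the sexes, where 6 mice give little power. With the mean of each sex removed, r fell to 0.36 (permutation p = 0.244) for Lamr1-ps1 and 0.37 (permutation p = 0.241) for App. Within the 6 females r was 0.62 (exact permutation p = 0.203) with Lamr1-ps1 and 0.70 (exact p = 0.111) with App, and within the 6 males 0.19 (exact p = 0.718) and 0.19 (exact p = 0.743). The coefficients in females were thus near those of all 12 mice and those in males were lower, and the difference between the sexes was not tested. Within genotypes r with Lamr1-ps1 was 0.81 in APP/PS1 (exact p = 0.0431, adjusted 0.139) and 0.81 in APP/PS1/FTnKO mice (exact p = 0.0625, adjusted 0.198), where each group holds both sexes. With App it was 0.30 (exact p = 0.507) and 0.74 (exact p = 0.0792). The relations with Rassf2 (r = 0.35, permutation p = 0.273) and Slc23a2 (r = -0.39, permutation p = 0.215) did not pass.

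**Figure D3:**
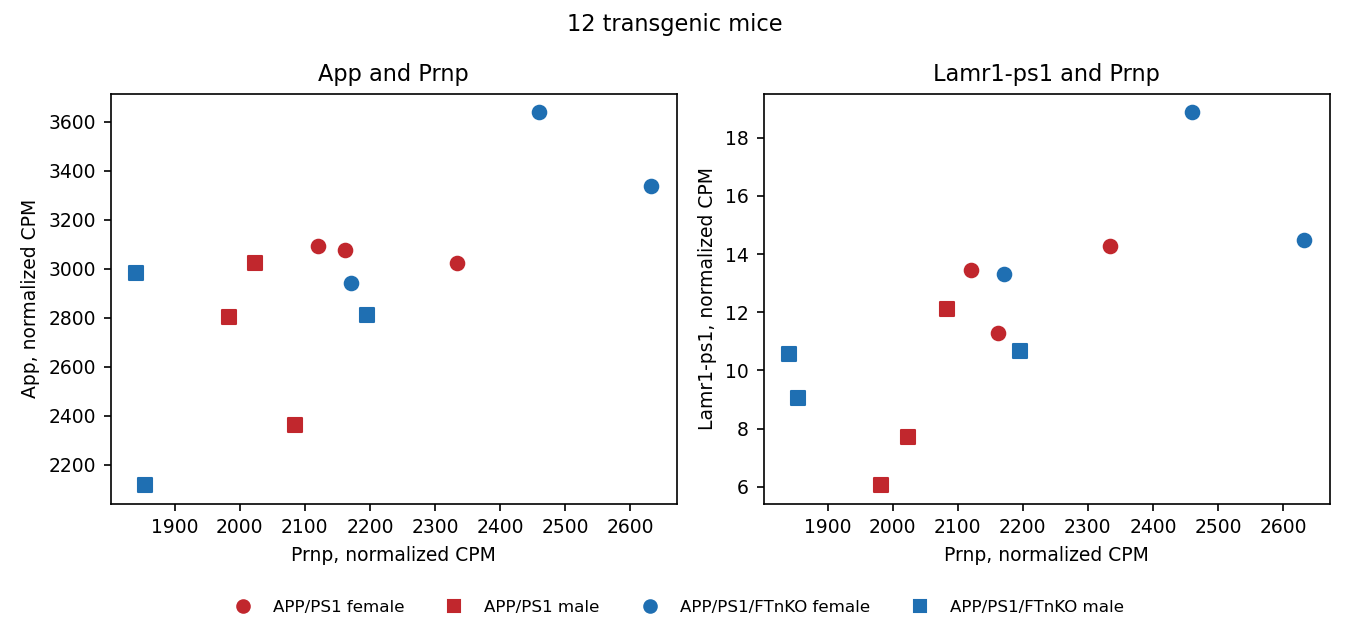
App (left) and Lamr1-ps1 (right) against Prnp in the 12 transgenic mice, all in normalized CPM, with red for APP/PS1, blue for APP/PS1/FTnKO, circles for females and squares for males. Most males lie to the lower left and most females to the upper right, and within the 6 males r is 0.19 in both panels.

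The genes whose pattern was most like that of Prnp over the 17 mice, by Pearson's r of log2 normalized CPM among 17410 genes, were Cst7 (r = 0.98), Itgax (0.97), App (0.96), Clec7a (0.95) and Ccl3 (0.94). Apart from App these are genes of activated microglia or other myeloid cells, and the 17 points form a WT and a transgenic cluster, so that r is a description over separate clusters. With the means of genotype and sex removed in the 12 transgenic mice, they were Txlnb (r = 0.97), Cep89 (0.92), Eri3 (0.91), Gm14342 (0.90) and Prss50 (0.90), and App, at 0.36, was number 2301 in the order. No gene was among the first 5 in both orders.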

How the data were processed

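Total RNA of the frontal cortex of 18 mice was made into stranded mRNA libraries and sequenced as 150-base read pairs. Trimming (Trimmomatic 0.33), alignment to GRCm38 (HISAT2 2.1.0) and counting per gene (featureCounts) were done by the authors, who deposited the raw, unnormalized counts of 55487 Ensembl genes. For featureCounts, the sources used here give neither the version nor the settings for strand, overlapping genes and multiple matches, and the submitters' processing notes name the builds mm10 and mm9. Each column is a mouse, grouped by the genotype in its label, and 0 columns were unused. The total counts of 15925432 to 21030935 per mouse leave little counting error except in weakly expressed genes.

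Counts were tested with the quasi-likelihood F test of edgeR 4.0.16 under R 4.3.3 (TMM scaling, a filterByExpr minimum of 10 counts, the 3 genotypes in a single fit with sex as a further term, 17 mice without WT mouse 19622, 17414 genes, Benjamini-Hochberg adjustment, FDR threshold 0.05). An SE is the log2 fold change divided by the square root of F. Alternatives were all 18 mice, DESeq2 1.42.0, RLE normalization, no filter, a minimum count of 30, leaving out sex, adding RNA integrity (RIN) to the model, dropping mice below a RIN of 8, fitting 2 genotypes at a time, windows of 500 kb and 2 Mb and each mouse left out. Scripts were tested on simulated data. Correlations were tested by permuting pairings (100000 resamples for 12 mice, exact for 6, two-sided). Positions came from GENCODE vM21, in which 99.4% of the gene identifiers were found.

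The members and lists were chosen with earlier results of these data known. The genes named are the 5 members, App, Rpsa, the 3 nearest tested genes on each side, neighbours and partners past the threshold, the other partners by name, and the 5 genes most like Prnp in each of both orders. Fntb, Prn, Siglec1, Gpcpd1, Atp6v0d2, Rpsa-ps2, Rpsa-ps7, Rpsa-ps10, Gfap, Slc17a7, Fyn and Grm5 were named after their values had been seen, and the contrast between the sexes and the relations within sexes were added then. A gene of the rule and its relation to Prnp are not reported here, though the relation was counted in the adjustment over 5.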

Additional observations from a re-analysis of the deposited data

How the results depend on the processing

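The study describes the genotypes as littermates, but the sample labels used here do not give the litter. No analysis paired or blocked by litter was therefore made. The levels of Prnp and Slc23a2 against WT mice kept their direction in all settings run, while that of Rassf2 ran from -0.06 to 0.12 in APP/PS1 mice and, with the knockout, from -0.04 to 0.09. Between the transgenic groups no member passed the threshold in any of 104 alternatives (smallest FDR 0.206). Of these, 8 turned the sign. The log2 fold change of Rassf2 was 0.049 with the RIN as covariate and 0.0060 with a RIN of at least 8, and it ran from -0.056 to 0.042 with each mouse left out. That of Prnp ran from -0.0010, without APP/PS1/FTnKO mouse 19394, to 0.084, that of Lamr1-ps1 from 0.16 to 0.38 and that of Slc23a2 from 0.032 to 0.080. The neighbours called were 1 (Gpcpd1) for APP/PS1/FTnKO against WT with only these genotypes, and 0 to 1 for APP/PS1 against WT with each mouse left out. Of the partners, 1 (Rpsa) was called between the transgenic groups with the RIN as covariate, and 0 to 1 for APP/PS1/FTnKO against WT with each mouse left out. Over all genes, the 261 called for APP/PS1 against WT became 458 with DESeq2, 452 without a filter, 84 with the RIN as covariate, 120 with a RIN of at least 8 and 124 to 465 with each mouse left out. The 57 called between the transgenic groups became 244 with DESeq2, 104 without a filter, 261 with the RIN as covariate, 14 with a RIN of at least 8, 2 with all 18 mice, 5 with only these genotypes and 10 to 81 with each mouse left out. The 674 called for APP/PS1/FTnKO against WT became 1302, 388 with the RIN as covariate, 368 with a RIN of at least 8, 261 with 18 mice and 206 to 987 with each mouse left out. The relations of Prnp weakened to 0.37 with App and 0.36 with Lamr1-ps1 when sex means were removed. With each mouse left out, r with App was 0.55 to 0.77, with an unadjusted permutation p above 0.05 without 19720 or 19722. The adjusted p of r was above 0.05 in 9 of 12 such cases for App and in 8 of 12 for Lamr1-ps1. The sex difference of Lamr1-ps1 was 0.51 to 0.77 with each mouse left out. The cause of these shifts was not tested. With almost no reads counted for them, Prnd and Prn cannot be compared between groups.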
